A study of Mus musculus with 12 samples.

Results

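The cytosolic ribosomal protein genes are described here across PIR+ and PIR- cells of fetal mouse liver. The 75 genes are the rows of the deposited table whose symbol is that of a large-subunit (Rpl), small-subunit (Rps) or P stalk (Rplp) protein, out of 23420 genes in the table. Of the 75, 46 belong to the large subunit, 3 of them to its P stalk, and 29 to the small subunit. The rule leaves out S6 kinases, paralogs with an "l" in the symbol and a few ribosomal proteins with other names, which are given separately. The names and locations of all 75 matched the gene annotation GENCODE M21 (GRCm38).

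RNA was measured in 12 libraries, 3 in each of 4 groups: PIR+ KO, PIR+ wt, PIR- KO and PIR- wt. PIR is the paired immunoglobulin-like receptor, and the series sets cells that carry it against cells that do not, in KO and in wild-type animals. Each library was made from 100 lineage-negative c-Kit+ liver cells, sorted by flow cytometry, with ERCC spike-in RNA added to each tube. Poly(A) RNA was reverse transcribed from a primer with a molecular barcode, so the values are numbers of molecules after the authors' normalization. The labels name no target gene of the KO and no strain, and it is not stated that replicates came from different animals. The p-values below therefore measure the spread between these libraries, and no check of a targeted gene was made. Groups follow the sample titles. The markers field of the labels gives the opposite PIR sign in 6 of the 12 libraries, and the embryonic day, E12.5 or E14.5, goes with that field and not with the title. Stage therefore cannot be read from the labels.

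The receptor transcripts followed the titles. Pira1, Pira2 and Lilrb3 were listed at 0 in all 6 PIR- libraries and were above 0 in all 6 PIR+ libraries. Kit, the c-Kit receptor, ran from 34.2 to 56.3 in PIR+ libraries and from 18.6 to 34.5 in PIR- libraries. Il7r, which the labels use as a sort marker of every library, was above 0 in each of the 12 libraries.

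A cytosolic ribosome has a large and a small subunit, each made of ribosomal RNA and a fixed set of proteins that are needed in matched amounts. The small subunit decodes the mRNA, the large subunit joins amino acids, and the P stalk of the large subunit recruits the factors that drive elongation. Mammalian ribosomal protein mRNAs are abundant and begin with a run of pyrimidines, the terminal oligopyrimidine or TOP sequence, through which growth signals control their translation together. Blood cell progenitors are sensitive to their dosage: loss of 1 copy of RPS19, RPL5 or RPL11 causes Diamond-Blackfan anaemia in humans.

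The promoters of 55 of the 75 genes were found in the RefSeq table of promoter windows (GRCm38.p6), with 65 windows in all, since some genes have several annotated starts. The 6 windows below belong to genes that departed from the rest of the family in the comparisons that follow. Each runs 5′ to 3′ on the gene's own strand, from 60 bases before the annotated start to the first 20 transcribed bases. Capitals mark matches to CGGAAG or CTTTCC on either strand (CTTCCG and GGAAAG are the reverse forms).
Rpl39 (chrX:37085203-37085282, minus strand): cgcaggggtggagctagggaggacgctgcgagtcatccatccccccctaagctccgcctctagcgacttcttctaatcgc
Rpl26 (chr11:68901506-68901585, plus strand): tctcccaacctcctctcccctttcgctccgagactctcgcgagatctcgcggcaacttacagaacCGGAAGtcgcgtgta
Rpl6 (chr5:121204441-121204520, plus strand): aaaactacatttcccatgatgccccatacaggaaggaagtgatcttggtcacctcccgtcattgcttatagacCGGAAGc
Rps27 (chr3:90213629-90213708, minus strand): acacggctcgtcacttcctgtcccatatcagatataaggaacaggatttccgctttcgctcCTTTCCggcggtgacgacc
Rpl13 (chr8:123102290-123102369, plus strand): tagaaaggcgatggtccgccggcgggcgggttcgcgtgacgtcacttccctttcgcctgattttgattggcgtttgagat
Rpl37 (chr15:5116553-5116632, plus strand): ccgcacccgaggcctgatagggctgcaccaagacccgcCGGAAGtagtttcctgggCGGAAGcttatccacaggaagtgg

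Among these 6, the windows of Rpl26, Rpl6 and Rpl37 hold CGGAAG, that of Rps27 holds CTTTCC, and those of Rpl39 and Rpl13 hold neither. In windows of this length CGGAAG was present in 20 of the 65 windows of ribosomal protein genes (30.8%) and in 8.13% of all 32851 windows in the table. CTTTCC was present in 14 of the 65 (21.5%) and in 7.03% of all windows. Over the full 300 bases of each window, CGGAAG was present in 61.5% of the ribosomal protein windows and 16.9% of all windows, and CTTTCC in 49.2% and 26.6%. TATAAA, the TATA box, was present in 9.23% of the ribosomal protein windows of 300 bases, against 13.6% of all windows. A C followed by 6 pyrimidines lay within 15 bases of the annotated start in 30 of 65 ribosomal protein windows (46.2%), against 14.2% of all windows. These matches describe the sequence and do not show that a factor binds there.

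The deposited values summed to between 155374 and 284648 per library, with 9881 to 11200 genes above 0, and correspond to an estimated 208195 to 442533 molecules. All 75 genes passed the filter on low values, that is 3 or more libraries with a deposited value of 10 or more, as did 4542 genes in all. Their means over the 12 libraries ran from 148.0 for Rpl26 to 1314.5 for Rpl41, with a median of 514. Whether the molecules of each gene were captured equally well was not tested, so these levels are not taken as an order of abundance. Many ribosomal protein genes have near-identical processed pseudogenes, and how the authors assigned reads shared with them is not given in the sources used here. Globin transcripts were high in 5 libraries, which are PIR+ KO replicate 1, PIR+ wt replicate 3, PIR- KO replicate 1 and PIR- wt replicates 2 and 3. All 5 are among the 6 libraries whose markers field and title differ.

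Summed over the 75 genes, ribosomal protein transcripts stood at 46885, 44970 and 56838 in the PIR+ KO libraries and at 38395, 44348 and 49240 in the PIR+ wt libraries. The sums were 33831, 38613 and 43982 in PIR- KO libraries and 29509, 28608 and 32680 in PIR- wt libraries. PIR+ sums lay above PIR- sums of the same genotype with no overlap in either genotype, and KO sums overlapped wt sums in PIR+ cells and did not in PIR- cells. In bulk samples, fewer cells of a type and less RNA per cell cannot be told apart.

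As a share of all molecules in the library, the same genes differed far less. They made up 20.1% ± 0.527 in PIR+ KO libraries, 19.3% ± 0.352 in PIR+ wt libraries, 20.1% ± 0.420 in PIR- KO libraries and 18.0% ± 0.830 in PIR- wt libraries (SD, n = 3 each). The shares of PIR+ wt and PIR- wt libraries overlapped, since PIR- wt replicate 1 reached 19.0% and PIR+ wt replicate 1 was at 18.9%. The PIR+ KO shares, 19.7% to 20.7%, lay above all 3 PIR+ wt shares, 18.9% to 19.6%, and the PIR- KO shares, 19.7% to 20.5%, lay above all 3 PIR- wt shares, 17.4% to 19.0%. Leaving the globin genes out of the library sum gave mean shares of 20.2%, 19.3%, 20.1% and 18.2% in the same order of groups. These shares are a description and were not tested.

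The balance of the 2 subunits set the PIR- wt libraries apart. The summed small-subunit genes were 0.678 to 0.687 of the summed large-subunit genes in PIR+ KO libraries and 0.675 to 0.691 in PIR+ wt libraries. The ratio was 0.685 to 0.699 in PIR- KO libraries and 0.711 to 0.719 in PIR- wt libraries. The 3 PIR- wt ratios lay above all 9 others, and the other 3 groups overlapped. In the panels of summed values, share and ratio, PIR+ lies above PIR- in the sum for both genotypes, KO lies above wt in the share for both PIR+ and PIR- cells, and the ratio is highest in PIR- wt libraries.

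**Figure D1:**
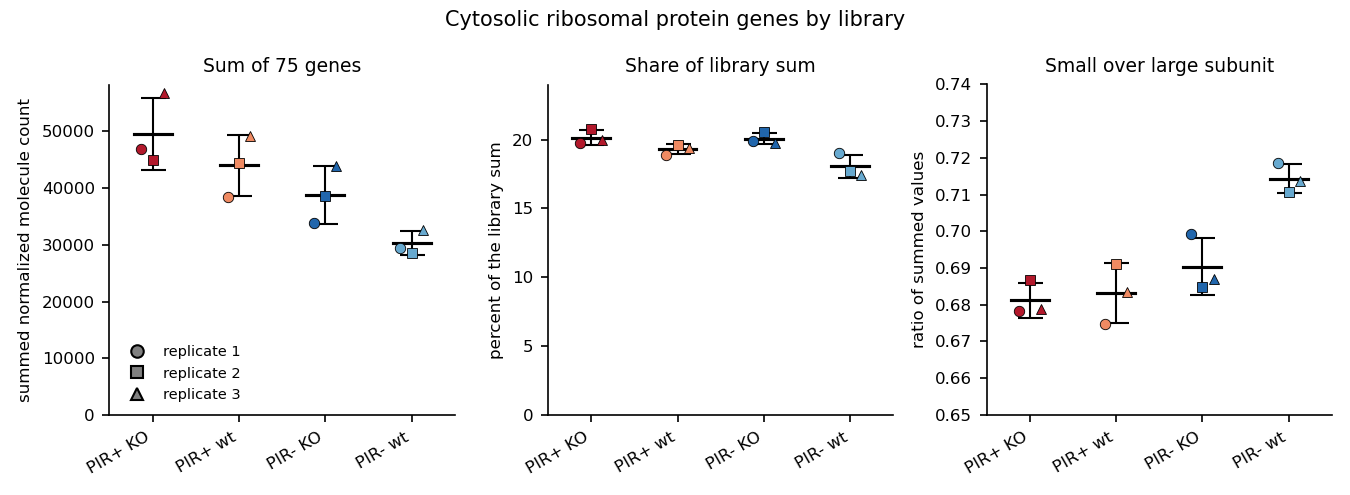
Summed normalized molecule count of the 75 ribosomal protein genes (left), their percent of the library sum (middle) and the ratio of summed small-subunit to summed large-subunit values (right, axis not from 0) in each of the 12 libraries. Symbols are libraries, wide bars are group means and capped bars are 1 SD (n = 3). The mean share is 20.1%, 19.3%, 20.1% and 18.0% from left to right, and the ratio is 0.711 to 0.719 in PIR- wt libraries, above all others.

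Nearly all ribosomal protein genes were higher in PIR+ than in PIR- cells on the deposited scale, by about as much as the typical gene. In wild type, 68 of 75 were higher and none was lower at a Benjamini-Hochberg adjusted p under 0.05 (limma on log2(value + 1), over 4542 genes). Over all tested genes, 40.6% were called higher and 3.72% lower. The log2 fold changes of the 75 ran from 0.28 to 0.79 with a median of 0.53, beside a median of 0.51 over all tested genes, and standard errors were 0.16 to 0.18. In 72 of the 75 the 3 PIR+ wt libraries lay above the 3 PIR- wt libraries, as they did for 47.6% of all tested genes. Rpl19, Rps13 and Rps19 were the exceptions.

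In KO cells, 19 of 75 were higher in PIR+ and none was lower, beside 22.5% and 2.97% of all tested genes. The median log2 fold change of the 75 was 0.35, and that of all tested genes was 0.39. In 41 of the 75 the groups did not overlap, beside 35.7% of all tested genes. All 19 were also called higher in wild type. They include Rps6, the S6 kinase substrate of the small subunit, the P stalk gene Rplp1, Rpl26 and Rpl6. The wild-type count was 37 without PIR+ wt replicate 3 and 43 without PIR- wt replicate 2. The KO count was 6 without either PIR+ KO replicate 3 or replicate 1 of the PIR- KO group and 7 without PIR- KO replicate 2. It was 12 without PIR+ wt replicate 2 and 43 without PIR- KO replicate 3. The share of all tested genes called was not worked out for fits with libraries left out, here and below. Such counts are not read as particular to the family. Without the 5 globin-rich libraries, limma called 2 in KO, and PIR- wt replicate 1 is left alone in its group. The 6 libraries whose title and markers field give the same sign leave PIR- wt replicate 1 and PIR+ KO replicate 3 alone in their groups. A call kept or lost in a comparison with such a group, here and below, rests on that library and on spread taken from the other groups.

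The marker lists moved with these comparisons too. Of 8 B lineage markers present, 7 were tested, and all 7 were lower in PIR+ cells in both genotypes as deposited, the scale of all the marker counts here. Their sums were 12.8 to 24.4 in PIR+ KO libraries and 25.0 to 35.5 in PIR+ wt libraries, against 644 to 986 in PIR- KO libraries and 764 to 1038 in PIR- wt libraries. Pax5 was listed at 0 in every PIR+ library. All 4 tested stem and multipotent progenitor markers, of 5 in the table, were higher in PIR+ cells in both genotypes. Their sums were 251 to 306 in PIR+ KO libraries, 193 to 241 in PIR+ wt libraries, 27.9 to 32.8 in PIR- KO libraries, and lower in all 3 PIR- wt libraries, with a lowest sum of 11.2. Both tested myeloid markers, of 6, were higher in PIR+ cells in both genotypes, with sums of 72.7 to 120, 72.4 to 94.2, 18.0 to 39.8 and 4.30 to 14.3 in the same order. The 9 erythroid markers summed to 21.2 to 1606 in PIR+ KO libraries, 21.9 to 646 in PIR+ wt libraries, 30.2 to 1046 in PIR- KO libraries and 142 to 1159 in PIR- wt libraries. All 3 tested erythroid markers were lower in PIR+ wt than in PIR- wt cells, and none passed the test between PIR+ KO and PIR- KO cells. Hepatocyte markers (4 genes) summed to at most 21.8 in all but 1 library, PIR- wt replicate 3, where they reached 58.9, and T lineage markers (4 genes) to at most 3.40, with Cd3e and Bcl11b at 0 throughout. The part of these cell types in the ribosomal protein results was not tested.

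Rescaling the libraries by the median of ratios, which sets the typical gene equal between libraries, moved the median of all tested genes in the wild-type comparison to 0.01, against 0.51 as deposited. On that scale 3 of the 75 genes were higher and 4 lower in PIR+ wt cells, beside 11.2% and 11.3% of all tested genes. Without PIR- wt replicate 1 these counts were 8 and 1. In KO cells 2 were higher and 6 lower, beside 8.08% and 7.6% of all tested genes. The median log2 fold change of the 75 was 0.01 in wild type and -0.05 in KO. Of the 75 genes, 40 had a fold change above 0 in wild type and 23 in KO, beside 51% and 50.6% of all tested genes. On the deposited scale all 75 were above 0 in both genotypes, beside 87.1% of all tested genes in wild type and 85.6% in KO. Scaled to the summed 75 genes, 3 were higher and 5 lower in PIR+ wt cells, beside 10.7% and 11.3% of all tested genes. In KO, 8 were higher and 3 lower on this scale, beside 9.16% and 6.21%, and Rpl21 and Rpl39 were lower in both genotypes. On the median-of-ratios scale, PIR+ libraries lay above PIR- libraries without overlap for 10 of the 75 genes in wild type and below for 9, beside 17.7% and 17.2% of all tested genes. In KO they lay above for 4 and below for 23, beside 16.7% and 16.5%. The family thus lay higher in PIR+ cells as deposited, while after rescaling it was spread about 0 in wild type and more of it lay below 0 than above in KO.

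**Figure D2:**
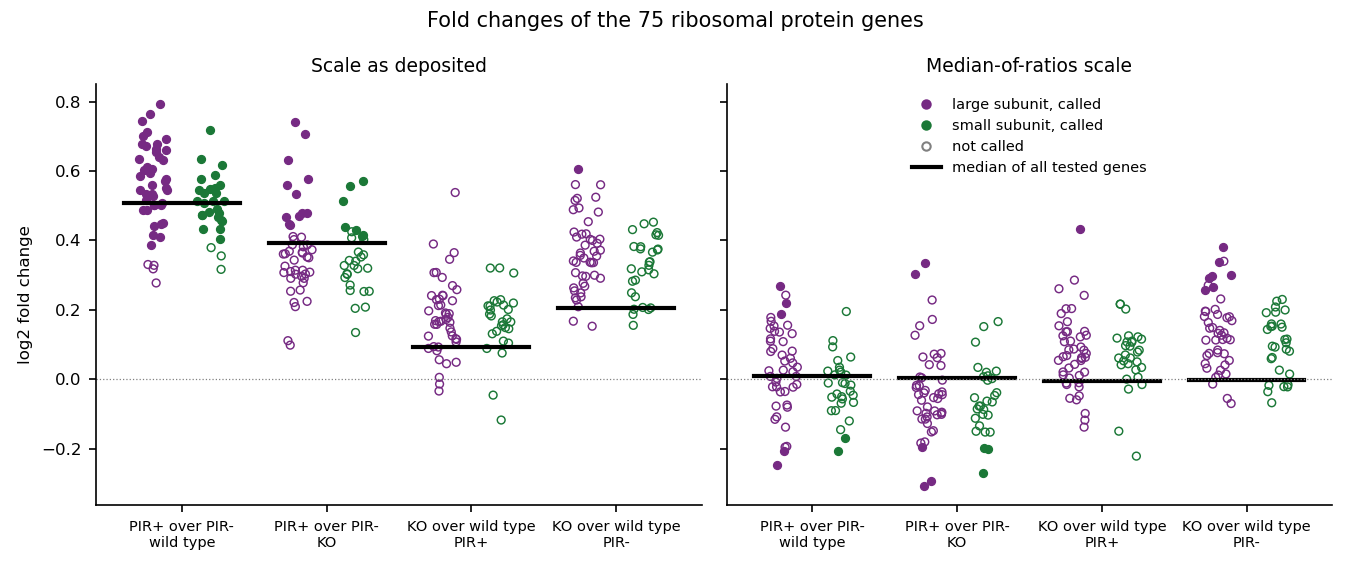
Log2 fold change of each of the 75 genes in 4 comparisons, on the deposited scale (left) and after median-of-ratios scaling (right). Filled points passed an adjusted p under 0.05, purple is the large subunit with the P stalk, green is the small subunit, and black lines are medians of all 4542 tested genes. In wild type 68 genes were called higher in PIR+ cells as deposited, and 3 higher with 4 lower after rescaling.

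Rpl39, an X-linked gene of a short protein at the exit of the peptide tunnel, departed from the rest of the family in both genotypes. Its values were 731.3, 728.6 and 995.4 in PIR+ KO libraries and 674.6, 760.3 and 859.6 in PIR+ wt libraries. They were 641.3, 734.5 and 917.7 in PIR- KO libraries and 607.5, 618.1 and 658.8 in PIR- wt libraries. As a share of the summed 75 genes, it stood at 1.56% to 1.75% in PIR+ KO and 1.71% to 1.76% in PIR+ wt libraries, against 1.90% to 2.09% in PIR- KO and 2.02% to 2.16% in PIR- wt libraries. The 6 PIR+ shares lay below the 6 PIR- shares. On the median-of-ratios scale Rpl39 fell by 0.25 ± 0.06 log2 units in wild type (limma adjusted p = 0.0028) and by 0.31 ± 0.06 in KO (adjusted p = 4.0e-04). As deposited, the sign turned, with log2 fold changes of 0.28 and 0.10 that did not pass (adjusted p = 0.15 and 0.66). The wild-type call on the median-of-ratios scale was kept under the alternatives run on that scale that left neither group with a single library. The KO call was also kept under the alternatives of that kind. It was lost in the fit to the 6 libraries with the same PIR sign in markers field and title, which leaves PIR+ KO replicate 3 alone in its group. Rpl39 alone among the 75 was called in the same direction in both genotypes on that scale.

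Rpl21, a large-subunit gene, was also a smaller part of the family in PIR+ cells. Its share of the 75 genes was 1.04%, 1.03% and 0.977% in PIR+ KO libraries, against 1.12%, 1.21% and 1.28% in PIR- KO libraries. In wild type it was 1.01%, 0.977% and 1.06% in PIR+ libraries, against 1.19%, 1.25% and 1.07% in PIR- libraries. The groups did not overlap in either genotype. On the median-of-ratios scale Rpl21 fell by 0.29 ± 0.07 in KO (limma adjusted p = 0.0058). That call was kept under the alternatives on that scale that left neither group with a single library. In wild type Rpl21 fell by 0.19 ± 0.07, which missed the threshold (adjusted p = 0.062). As deposited, its fold changes were positive, at 0.11 in KO and 0.33 in wild type, and did not pass (adjusted p = 0.63 and 0.093). Scaled to the summed 75 genes, both were lower (adjusted p = 0.017 in KO and 0.037 in wild type).

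Rpl26, whose product sits near the tunnel exit and in human cells also binds p53 mRNA, was highest in the family by fold change in several comparisons. Its values were 207.2, 194.2 and 260.4 in PIR+ KO libraries and 137.4, 140.7 and 175.9 in PIR+ wt libraries. They were 114.4, 135.2 and 144.0 in PIR- KO libraries and 89.9, 75.1 and 101.6 in PIR- wt libraries. PIR+ KO libraries lay above the other 9. Its share of the 75 genes was 0.432% to 0.458% in PIR+ KO, 0.317% to 0.358% in PIR+ wt, 0.327% to 0.350% in PIR- KO and 0.263% to 0.311% in PIR- wt libraries. Between PIR+ and PIR- cells it was higher on the deposited scale by 0.74 ± 0.18 in KO and by 0.76 ± 0.18 in wild type (limma adjusted p = 9.3e-04 and 4.0e-04), the wild-type call being lost without the 5 globin-rich libraries (0.15). After median-of-ratios scaling it was higher in KO by 0.34 ± 0.09 (adjusted p = 0.012), a call lost without PIR- KO replicate 3 (adjusted p = 0.064). In wild type it was 0.24 ± 0.09 on that scale and missed the threshold (adjusted p = 0.062). Of the 75 genes Rpl26 had the widest spread of its share over the 12 libraries, 1.75-fold, where the median gene had 1.22-fold.

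Rpl6, a large-subunit gene, was higher in PIR+ KO than in PIR- KO cells on all 3 scales. Its values were 383.5, 411.8 and 479.8 in PIR+ KO libraries, against 230.4, 265.2 and 283.6 in PIR- KO libraries. The log2 fold change was 0.71 ± 0.17 as deposited (limma adjusted p = 7.4e-04) and 0.30 ± 0.08 on the median-of-ratios scale (adjusted p = 0.012). The call on the median-of-ratios scale was lost without PIR+ KO replicate 2 (adjusted p = 0.11) or PIR- KO replicate 3 (adjusted p = 0.075). In wild type the values were 286.8, 382.1 and 393.9 in PIR+ libraries, against 233.8, 202.9 and 257.6 in PIR- libraries. The median-of-ratios fold change there was 0.08 ± 0.08 (adjusted p = 0.55), and the difference between genotypes, 0.22 ± 0.12, did not pass (adjusted p = 0.61).

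Rps27, a small-subunit gene with a zinc finger, had its lowest share in PIR+ KO cells. It made up 1.20%, 1.39% and 1.36% of the 75 genes in PIR+ KO libraries, 1.59%, 1.68% and 1.55% in PIR+ wt libraries, 1.55%, 1.35% and 1.70% in PIR- KO libraries and 1.63%, 1.71% and 1.74% in PIR- wt libraries. PIR+ KO lay below PIR+ wt without overlap, and PIR+ KO overlapped PIR- KO. Against PIR- KO it fell by 0.27 ± 0.07 on the median-of-ratios scale (limma adjusted p = 0.0098), where the deposited scale gave 0.13 (adjusted p = 0.55). That call was lost without PIR+ KO replicate 1 (adjusted p = 0.092) or PIR- KO replicate 3 (adjusted p = 0.10). Against PIR+ wt it fell by 0.29 ± 0.07 when libraries were scaled to the summed 75 genes (adjusted p = 0.039), and the median-of-ratios value of -0.22 did not pass (adjusted p = 0.20).

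**Figure D3:**
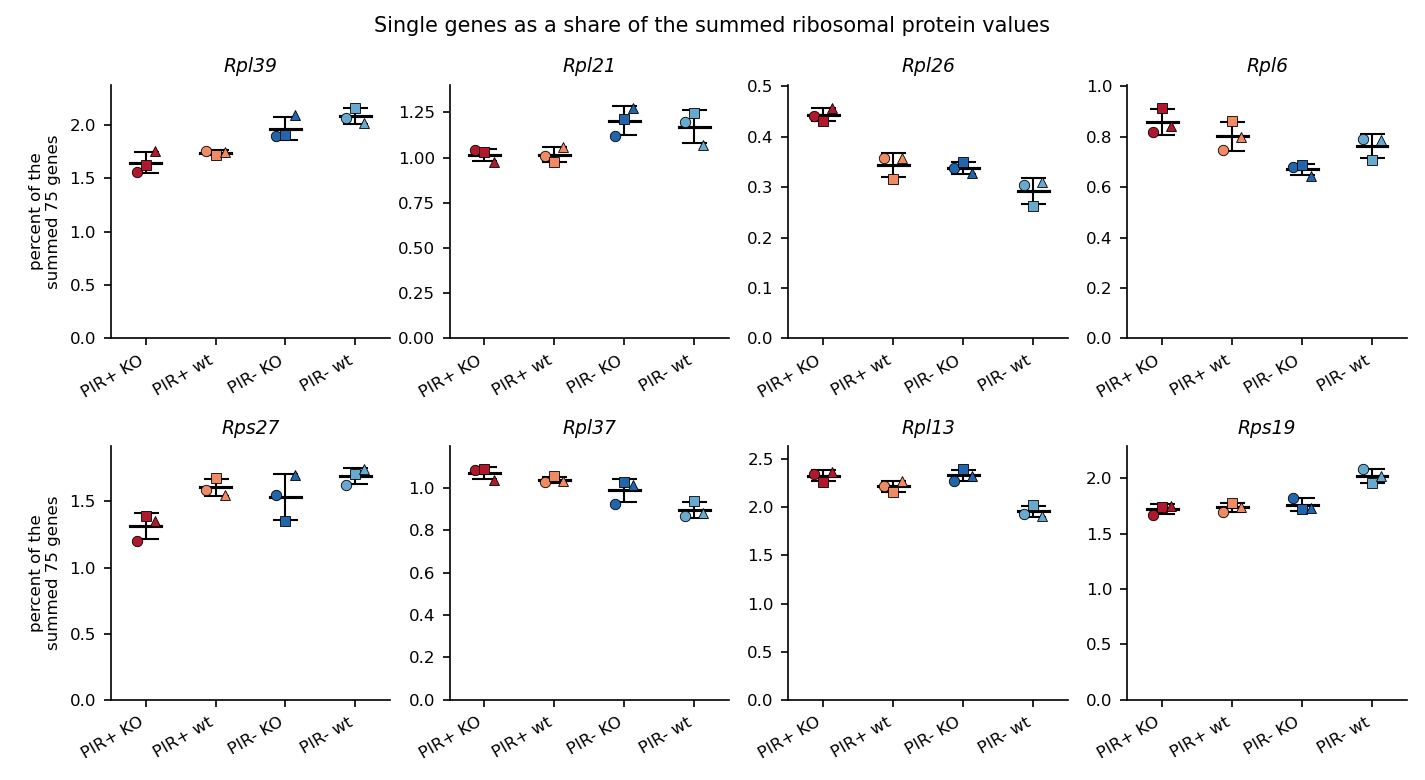
Each of 8 ribosomal protein genes as a percent of the summed 75 genes in the 12 libraries, with group means and 1 SD (n = 3), symbols for replicates 1 (circle), 2 (square) and 3 (triangle). Rpl39 lies at 1.56% to 1.76% in PIR+ libraries and 1.90% to 2.16% in PIR- libraries, Rpl26 is highest in PIR+ KO libraries, and Rpl13 is lowest and Rps19 highest on average in PIR- wt libraries.

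In the other genes called in wild type after median-of-ratios scaling, PIR- wt libraries had the lowest or the highest mean share of the 4 groups. Rpl13 and Rpl37, both of the large subunit, were higher in PIR+ wt cells by 0.19 and 0.22 log2 units (limma adjusted p = 0.012 and 0.020). Rps19, the small-subunit gene mutated most often in Diamond-Blackfan anaemia, fell by 0.21 ± 0.06 (adjusted p = 0.014). Rps2 of the small subunit and Rplp2 of the P stalk fell by 0.17 and 0.21 (adjusted p = 0.024 and 0.033). As deposited, Rps19, Rps2 and Rplp2 had positive fold changes, 0.32 to 0.36, that did not pass. The calls for Rpl13, Rpl37 and Rps2 were lost without the 5 globin-rich libraries (adjusted p = 0.39, 0.24 and 0.081). That for Rpl13 was also lost without PIR+ wt replicate 3 (adjusted p = 0.069) or PIR- wt replicate 3 (0.062), and that for Rps19 without PIR+ wt replicate 1 (0.092) or PIR- wt replicate 1 (0.094). Rpl37 lost its call without PIR+ wt replicate 2 (0.089) or 3 (0.058) or PIR- wt replicate 3 (0.076). Rps2 lost it without PIR+ wt replicate 1 (0.14) or PIR- wt replicate 1 (0.066) or 2 (0.079), and Rplp2 without PIR+ wt replicate 1 (0.10) or 2 (0.10) or PIR- wt replicate 1 (0.19). The remaining genes called in KO on that scale, Rpl28, Rps10 and Rps28, fell by 0.20 each in PIR+ cells (adjusted p = 0.025, 0.035 and 0.042). The calls for Rpl28 and Rps10 were lost without PIR+ KO replicate 1 or 2 or PIR- KO replicate 2 or 3, with adjusted p of 0.051 to 0.19. That for Rps28 was lost without any 1 of the PIR+ KO libraries, PIR- KO replicate 1 or 3, or PIR+ wt replicate 2, with adjusted p of 0.052 to 0.20. The calls for Rpl28, Rps10 and Rps28 were each also lost with a replicate block, without the 5 globin-rich libraries, or in both of these fits. The fit to the 6 libraries whose title and markers field give the same sign leaves PIR- wt replicate 1 and PIR+ KO replicate 3 alone in their groups. Some genes named here kept their median-of-ratios calls in that fit and others lost theirs, and neither is read as a result.

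Between KO and wild type, most PIR- KO values of ribosomal protein genes lay above the PIR- wt values, and 1 gene passed the test on the deposited scale. In PIR- cells 1 of 75, Rpl13, was higher and none lower, beside 1.08% and 0.22% of all tested genes. At an unadjusted p under 0.05 limma counted 45 of 75, beside 13.8% of all tested genes. PIR- KO values lay above PIR- wt values without overlap for 47 of the 75, beside 14.4% of all tested genes. The log2 fold changes of the 75 ran from 0.15 to 0.60 with a median of 0.34, beside 0.20 over all tested genes. The count called was 7 without PIR- KO replicate 1 and 2 without PIR+ KO replicate 3. In the same comparison 2 of 3 tested erythroid markers were lower in KO, and both tested myeloid markers and 1 of 4 tested stem and progenitor markers were higher, with the sums given above. Their part in the result was not tested.

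Rpl13 had 770.6, 925.4 and 1020.5 in PIR- KO libraries, against 570.4, 579.3 and 625.4 in PIR- wt libraries. Its share of the 75 genes was 2.28% to 2.40% in PIR- KO libraries, against 1.91% to 2.02% in PIR- wt libraries. The log2 fold change was 0.60 ± 0.16 as deposited (limma adjusted p = 0.030), 0.38 ± 0.05 on the median-of-ratios scale (adjusted p = 6.9e-05) and 0.25 ± 0.05 scaled to the summed 75 genes (adjusted p = 0.0041). The median-of-ratios call was kept under the alternatives on that scale that left neither group with a single library. On the deposited scale it was lost without PIR+ wt replicate 2 (adjusted p = 0.062), PIR- wt replicate 1 (0.15) or 2 (0.13), or PIR- KO replicate 2 (0.19) or 3 (0.23), without the 5 globin-rich libraries (0.25), with a pseudocount of 0.1 (0.055), with no filter on low values (0.33) and in the fit to the 6 libraries with matching signs (0.058).

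After median-of-ratios scaling, 7 of 75 were higher in PIR- KO than in PIR- wt cells and none was lower, beside 1.01% and 0.705% of all tested genes. All 7 belong to the large subunit, and the lowest limma adjusted p among the 29 small-subunit genes was 0.052. The median log2 fold change was 0.13 in the large subunit and 0.11 in the small one, and a difference between subunits was not tested. Among the 7 were Rpl13, Rpl41 (0.26, adjusted p = 0.0077), Rpl9 (0.34, 0.010), Rpl36 (0.30, 0.012), Rpl37a (0.29, 0.026) and Rpl37 (0.27, 0.037), by limma. Rpl41 encodes the shortest protein of the ribosome. At an unadjusted p under 0.05 there were 32 of 75, beside 12.1% of all tested genes, 22 of them among the 46 large-subunit genes and 10 among the 29 small-subunit genes. The fold changes had a median of 0.12 over the 75 genes, beside 0.00 over all tested genes. The 7 rested on PIR- wt replicate 3 and PIR- KO replicate 2, since Rpl13 alone was called without either 1 of them, as it was without the 5 globin-rich libraries. Rpl36 was also lost without PIR- KO replicate 1 (0.065), Rpl37a without PIR- wt replicate 2 (0.12) or PIR- KO replicate 1 (0.065) or 3 (0.053), and Rpl37 without PIR+ wt replicate 3 (0.051), PIR- wt replicate 1 (0.059) or PIR- KO replicate 3 (0.14). Scaled to the summed 75 genes, Rpl13 alone was higher, and Rps19 alone was lower, by 0.20 (adjusted p = 0.0497), beside 0.683% higher and 1.5% lower over all tested genes. Rps19 made up 1.82%, 1.72% and 1.73% of the 75 genes in PIR- KO libraries, against 2.08%, 1.96% and 2.02% in PIR- wt libraries. This comparison and the one between PIR+ wt and PIR- wt share the 3 PIR- wt libraries, so the appearance of Rpl13, Rpl37 and Rps19 in both is not independent.

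In PIR+ cells none of the 75 genes was called between KO and wild type on the deposited scale by limma, where 0.44% of all tested genes were higher and 0.462% lower. At an unadjusted p under 0.05 there were 4, Rpl14, Rpl26, Rpl36a and Rpl38, beside 6.89% of all tested genes. The median log2 fold change was 0.17, beside 0.09 over all tested genes. After median-of-ratios scaling Rpl26 was higher by 0.43 ± 0.09 (adjusted p = 0.012) and no other gene passed, beside 0.352% higher and 0.638% lower over all tested genes. At an unadjusted p under 0.05 there were 17 of 75 on that scale, beside 9.58% of all tested genes. The call for Rpl26 was lost without PIR+ wt replicate 2 (adjusted p = 0.090) or PIR+ KO replicate 2 (0.060) or 3 (0.067). Scaled to the summed 75 genes, Rpl26 was higher and Rps27 lower, beside 0.308% and 1.01% of all tested genes. Of the 7 tested B lineage markers, 2 were lower in PIR+ KO than in PIR+ wt cells as deposited, and their part was not tested.

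**Figure D4:**
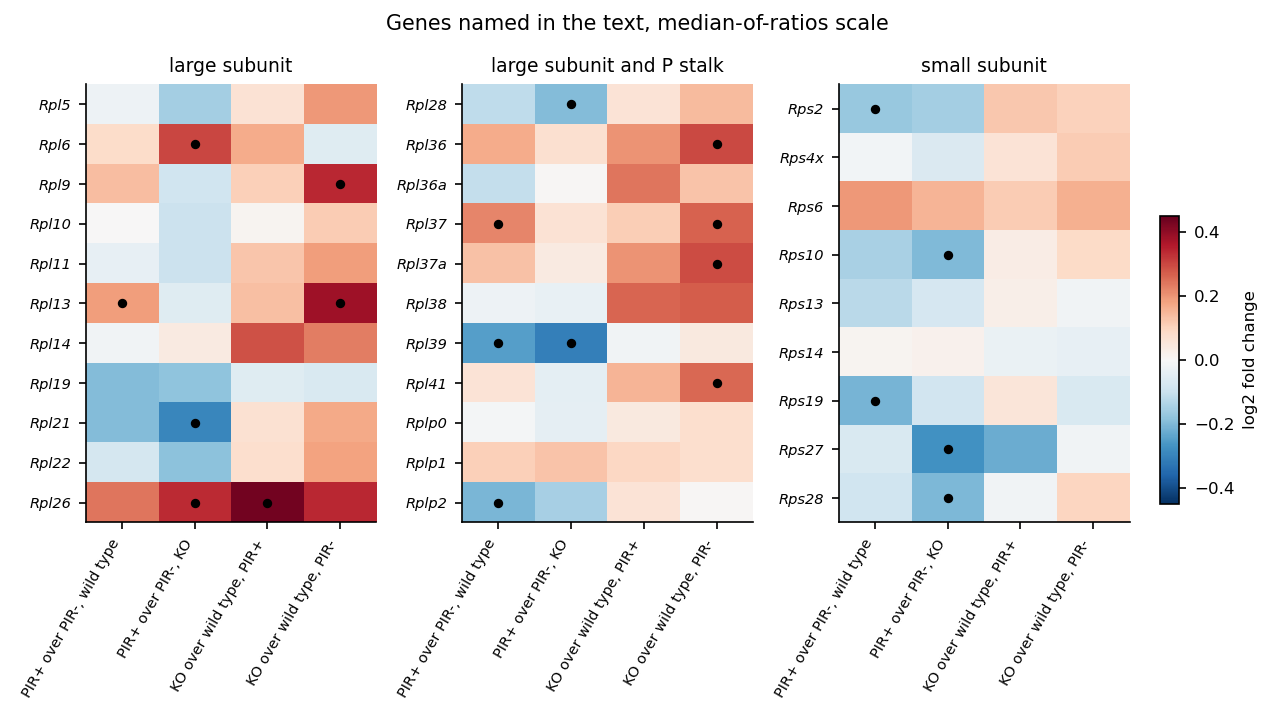
Log2 fold change of ribosomal protein genes named in the text, on the median-of-ratios scale in 4 comparisons, with a black dot where the limma adjusted p was under 0.05. Rpl39 was lower in PIR+ cells in both genotypes. The dots for KO over wild type in PIR- cells all lie on large-subunit genes, where the lowest small-subunit adjusted p was 0.052. On the deposited scale Rpl39 had fold changes above 0.

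None of the 75 genes passed the test of a difference in KO effect between PIR+ and PIR- cells. As deposited, limma called none, with 1 at an unadjusted p under 0.05 (beside 5.5% of all tested genes) and a lowest adjusted p of 0.89, while 0.11% of all tested genes were called higher and 0.462% lower. On the median-of-ratios scale none was called either, beside 0.286% of all tested genes higher and 0.462% lower, with 5 at an unadjusted p under 0.05 (beside 8.7%). The lowest adjusted p there was 0.067. Without PIR- wt replicate 1, 1 of the 75 genes was called lower on that scale. Scaled to the summed 75 genes none was called, beside 0.308% higher and 0.33% lower over all tested genes.

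Among 13 genes taken for a known role, 10 were higher in PIR+ wt than in PIR- wt cells as deposited. This stands beside 68 of all 75 genes and 40.6% of all tested genes, so it does not set these 13 apart. After median-of-ratios scaling Rpl39, Rps19 and Rplp2, described above, were lower in wild type and the other 10 did not pass. Rpl5 and Rpl11, whose free proteins bind the p53 regulator Mdm2, and Rps14, which is lost in the human 5q- syndrome, were each higher in PIR+ than in PIR- cells in wild type as deposited (log2 0.50, 0.49 and 0.54, limma adjusted p = 0.010, 0.011 and 0.0087). After median-of-ratios scaling their fold changes were -0.02, -0.04 and 0.01 and did not pass. Rps6, the target of S6 kinase, was higher by 0.72 ± 0.16 in wild type and by 0.56 ± 0.16 in KO as deposited (adjusted p = 2.8e-04 and 0.0074), and its median-of-ratios values of 0.20 and 0.15 did not pass. Rpl38, needed in mice for translation of some Hox mRNAs, and Rpl22, linked in mice to lymphocyte development, had median-of-ratios fold changes of -0.02 and -0.08 in wild type, neither past the threshold. The P stalk genes Rplp0 and Rplp1 were both higher in PIR+ wt cells as deposited (0.52 and 0.63, adjusted p = 0.0076 and 0.0013) and neither passed after median-of-ratios scaling (-0.01 and 0.11), where Rplp2, the other P stalk gene, fell by 0.21 as given above. Without the 5 globin-rich libraries, all 10 deposited-scale calls in wild type were lost, as they were in the fit to the 6 libraries with matching signs. Leaving out PIR+ wt replicate 3 also ended the calls for Rpl5, Rpl11, Rps14 and Rplp0 (adjusted p = 0.078, 0.068, 0.051 and 0.077), leaving out PIR- wt replicate 1 those for Rpl5 and Rpl11 (0.052 and 0.067), leaving out PIR- wt replicate 2 those for Rps14 and Rplp0 (0.088 and 0.060), and leaving out PIR+ wt replicate 2 that for Rps14 (0.090). Rpl22 and Rpl13a lost theirs without PIR+ wt replicate 2 (0.074 and 0.12) or 3 (0.11 and 0.19). They also did without PIR- wt replicate 1 (0.13 and 0.17) or 2 (0.053 and 0.15). Rpl38 lost its call without PIR+ wt replicate 3 (0.16) or PIR- wt replicate 1 (0.074). Rpl13a also lost its call without PIR+ KO replicate 1 (0.064) or PIR- KO replicate 2 (0.065).

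Several related genes outside the rule were also higher in PIR+ cells on the deposited scale. Among ribosomal protein genes with other names, Fau and Gnb2l1 were higher in wild type (log2 0.71 and 0.65, limma adjusted p = 3.2e-04 and 0.0011) and in KO (0.55 and 0.50, adjusted p = 0.0077 and 0.019). Rpsa, at 0.35 and 0.25 as deposited, did not pass in either genotype (adjusted p = 0.071 and 0.25). After median-of-ratios scaling Fau was higher and Rpsa lower in wild type, and Rpsa lower in KO (log2 0.19, -0.18 and -0.16, limma adjusted p = 0.033, 0.018 and 0.044). Of 7 paralogs in the table, 4 were tested, and 3 were higher in PIR+ wt cells and 1 in PIR+ KO cells as deposited. Over all tested genes, 40.6% and 22.5% were higher. After rescaling no paralog was called. Rpl22l1 was the one called in both genotypes (0.75 in wild type and 0.51 in KO, adjusted p = 5.0e-04 and 0.027).

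Ribosome biogenesis genes process ribosomal RNA and assemble the subunits. Of 50 present, 46 were tested, and 17 were higher in PIR+ wt cells and 6 in PIR+ KO cells as deposited, with none lower, beside 40.6% and 22.5% of all tested genes called higher. Their median log2 fold changes were 0.40 in both genotypes, beside 0.51 in wild type and 0.39 in KO over all tested genes. After median-of-ratios scaling, Polr1c and Wdr12 were higher and Ncl, Nop56 and Nop58 lower in PIR+ wt cells, and Ncl alone was called in KO, also lower. Ncl, which encodes nucleolin, fell by 0.58 ± 0.09 in wild type and by 0.35 ± 0.09 in KO (limma adjusted p = 1.5e-05 and 0.0070), while as deposited it was at -0.05 and 0.06 and did not pass. Of 16 translation factors and related genes with TOP mRNAs, 11 were higher in PIR+ wt cells and 4 in PIR+ KO cells as deposited, beside the same 40.6% and 22.5%, with medians of 0.59 and 0.36. After rescaling, Eef1g was higher in PIR+ wt cells (0.24, adjusted p = 0.027) and Tpt1 lower in both genotypes (-0.18 in wild type and -0.24 in KO, adjusted p = 0.030 and 0.0070). Between KO and wild type in PIR- cells, Eef1g was higher after rescaling (0.34, adjusted p = 0.016). No other gene of these 4 lists was called between KO and wild type on either scale.

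The authors' deposited table gives p-values for 2 of the comparisons, and its header does not say whether they are adjusted. For PIR+ wt against PIR- wt, the authors' deposited table has 10 of the 75 genes (13.3%) under 0.05, beside 12.6% of the 9134 genes with a value. For PIR+ KO against PIR+ wt, the authors' deposited table has 17 of the 75 (22.7%) under 0.05, beside 3.08% of 10544 genes. Of those 17, 16 had a fold change above 0 on the median-of-ratios scale, Rpl26 and Rpl14 among them, and Rps27 was below 0.

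The 75 genes lie on 19 chromosomes, with 14 on chromosome 7 and 4 on the X chromosome (Rpl10, Rpl36a, Rpl39 and Rps4x). Between PIR+ and PIR- wt cells as deposited, the log2 fold changes of the 4 X-linked genes ran from 0.28 to 0.53. Of them 3 were called higher, beside 40.6% of all tested genes. On the median-of-ratios scale their fold changes ran from -0.25 for Rpl39 to 0.00 for Rpl10, and Rpl39 alone was called. Across the 12 libraries each of the 75 genes followed the library sum, with Pearson's r of 0.838 to 0.982 and a median of 0.951. The library sum contains these genes, so this is a description with no test.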

How the data were processed

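The authors deposited normalized molecule counts (unit signal) for 12 libraries, to 1 decimal, and p-values from their own DESeq2 tests for 2 comparisons, per the file headers. TopHat2, DESeq2 and mm10 are named per the submitters' processing notes. Of versions, counting rules and the normalization step, nothing is given in the sources used here. Between 93.0% and 94.2% of values under 15 lie within 0.055 of a multiple of 1 step per library, so whole counts were not assumed and no count test was run. The ribosomal protein genes were matched by symbol.

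The 4 group means were fitted with limma 3.58.1 (R 4.3.3, trended prior) on log2(value + 1), over the 4542 genes with at least 10 in at least 3 libraries, and p-values were adjusted over all of them. The added 1 slightly understates fold changes. The 5 comparisons were refitted after median-of-ratios scaling and after scaling to the summed 75 genes. Replicate numbers were checked for pairing by a correlation that takes out library-wide shifts, and were not treated as pairs. Named genes were the up to 5 largest called per direction or the lowest p, the highest and lowest levels, those with known roles, and those called on the other scales. The genes and lists were chosen with earlier results of these data known. Some genes that this rule names are not reported here. The fit was tested on simulated data with independent noise for each gene and no shift shared by a library. That test therefore says nothing about p-values under the shifts between libraries seen on the deposited scale.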

Additional observations from a re-analysis of the deposited data

How the results depend on the processing

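Counts of ribosomal protein genes called higher depended on the scale and on the libraries. PIR+ over PIR- in wild type gave 68 as deposited, 3 (4 lower) by median of ratios, 3 (5 lower) scaled to the summed 75 genes, 13 with only the 6 libraries where title and markers field give the same PIR sign and 0 without the 5 globin-rich libraries. In KO, 19 became 2 (6 lower), 8 (3 lower), 10 and 2 under the same settings, and 7 with no filter on low values. KO over wild type in PIR+ gave 0, then 1, 1 (1 lower) and 1 under the first 3 of these, and KO over wild type in PIR- gave 1, then 7 by median of ratios, 1 (1 lower) scaled to the summed genes, and 0 with a pseudocount of 0.1, with no filter, or with either smaller set of libraries. Fewer libraries leave a larger error, and the cause of these changes was not otherwise tested. Leaving out 1 library gave 37 to 73, 6 to 43, 0 to 0 and 0 to 7 in the same order. With the replicate number as a block the counts were 75, 67, 2 and 45. Apart from the 3 scales, the share of all tested genes called was not worked out for these settings. Those counts therefore do not set the family apart from other genes. The 18 same-numbered pairs correlated at -0.11 to 0.16 across genes, 1 of them over 0.1. Of the 12 libraries, 4 correlated best with 1 of their own number. Such a correlation takes out a shift common to all genes of a library, so it cannot show or exclude pairs with such a shift. Replicate 3 had the highest library sum in each group (284648 in PIR+ KO, 253582 in PIR+ wt, 222700 in PIR- KO and 187525 in PIR- wt). The labels do not say what the numbers mark, and they were not treated as pairs. With 1 library left out, mean shares of the library sum ran from 19.8% to 20.4% in PIR+ KO and 19.2% to 19.5% in PIR+ wt libraries. They ran from 19.8% to 20.2% in PIR- KO and 17.6% to 18.4% in PIR- wt libraries. With 3 libraries a group such a mean cannot move by 1 SD, so this is no check of the shares. As deposited, Rpl39 in KO, which did not pass, reached -0.051 with 1 library left out. Reversals of direction that came with a change of scale follow. In wild type, genes positive as deposited had log2 fold changes by median of ratios and scaled to the summed genes of -0.022 and -0.031 (Rpl5), -0.035 and -0.044 (Rpl11), -0.077 and -0.086 (Rpl22), -0.022 and -0.031 (Rpl38), -0.14 and -0.15 (Rpl13a), -0.0082 and -0.017 (Rplp0), -0.21 and -0.22 (Rps19), -0.25 and -0.26 (Rpl39) and -0.21 and -0.22 (Rplp2), and Rpl10 had -0.0066 scaled to the summed genes. In KO, Rpl39 had -0.31 and -0.25, as 1 of 52 of the 75 genes below 0 by median of ratios, where wild type had 35. Above 0 on that scale were 50.6% of all tested genes in KO and 51% in wild type. Genes called lower by median of ratios had positive values as deposited, which in wild type were 0.28 (Rpl39), 0.32 (Rps19), 0.36 (Rps2) and 0.32 (Rplp2), and in KO 0.098 (Rpl39), 0.11 (Rpl21), 0.13 (Rps27), 0.21 (Rpl28), 0.21 (Rps10) and 0.20 (Rps28). On the median-of-ratios scale, the fits with a replicate block and those with libraries left out were chosen after seeing the data, as was setting median-of-ratios calls against the deposited scale. At 3 libraries a group, standard errors of 0.16 to 0.18 as deposited limit what can pass.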
